A study of Solanum lycopersicum with 12 samples.

Results

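A set of 10 genes from the first layers of tomato immunity was followed in shoots and roots of seedlings sprayed with piperonylic acid (PA) or a mock solution. They were chosen by locus as the pattern receptors FLS2, FLS3, CORE and Bti9, the co-receptors SERK3A and SERK1, the NADPH oxidases RBOH1 and RBOHB, and the mitogen-activated protein (MAP) kinases MPK1 and MPK3. All 10 had a row among the 34688 loci measured. The deposited table holds locus identifiers and no gene names, so the names are those of the gene list. A RefSeq gene table held 6 of the 10 names as a symbol or synonym, on the chromosome the identifier carries in all 6 cases, but paired none of them with these identifiers. PA inhibits cinnamate 4-hydroxylase, an early enzyme of the phenylpropanoid pathway. The plants were seedlings of the cultivar Moneymaker. Leaves received 300 µM PA with 0.1% Tween 20, or the matching mock solution, on days 7 and 14 after transplantation, and plants were harvested on day 15. Shoots and roots of each treatment formed 4 groups of 3 samples, and every sample pooled 4 plants. Roots therefore came from plants sprayed on the leaves.

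Pattern receptors sit in the plasma membrane and recognise conserved microbial molecules outside the cell. On binding they pair with co-receptor kinases of the SERK family, and the complex switches on respiratory burst oxidases (RBOH), which make superoxide outside the membrane, and cascades of MAP kinases, which phosphorylate transcription factors and other targets. FLS2 and FLS3 bind separate stretches of bacterial flagellin, CORE binds a bacterial cold shock protein peptide, and Bti9 is a LysM receptor kinase related to the Arabidopsis chitin receptor kinase CERK1.

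Libraries held 4214169 to 7386030 reads of 3′-end sequencing, and levels are given as normalized counts, which are reads divided by a size factor per library. Levels are compared between groups for each gene and not between genes. As a check of the tissue labels, 98 root markers and 213 shoot markers were taken as loci at least 64-fold apart between mock tissues, so their contrast between mock tissues is given by the choice. The root markers took 5.07 to 5.32% of the signal in PA root and 0.0168 to 0.0233% in PA shoot, and the shoot markers took 18.8 to 19.0% in PA shoot and 0.11 to 0.203% in PA root. In mock shoot the shoot markers took 20.2 to 21.5%, above all 3 PA shoot libraries, and the root markers 0.0134 to 0.0158%, below all 3. Because the markers were chosen on the mock shoot values themselves, the choice favours both of these orders, by an amount that was not tested. Mock shoot replicate 1 stood apart from the other shoot libraries on the first principal component, at 51.1 against -22.4 to 3.61. In root, PA root replicate 3 lay at 3.88, between the other PA root libraries (18.8 and 30.7) and the mock root libraries (-25.0 to -9.44).

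CORE, FLS3 and FLS2, 3 of the 4 receptors, were near the lower limit of the measurement. CORE (Solyc03g096190.2, chromosome 3) had 1 read in all 12 libraries together, in PA root replicate 1. FLS3 (Solyc04g009640.4, chromosome 4) had 8 reads, in 3 of the 6 shoot libraries. Of these, 5 were in PA shoot replicate 3 alone, and no read fell in any of the 6 root libraries. A count of 0 in a library allows up to 3 reads there, or 2.28 to 4.69 normalized counts depending on the library. This limit holds for single libraries and does not decide whether groups differ. With no filter on low values, neither gene passed limma in any comparison that tested it. For FLS3 the log2 difference of root minus shoot was -0.87 in mock plants (limma adjusted p = 0.127) and -0.85 in PA plants (limma adjusted p = 0.29). Its reads summed over the libraries of each tissue were not compared. The sources used here do not say how reads near the end of an annotated transcript were assigned, so these are levels as counted at these loci.

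FLS2 (Solyc02g070890.3, chromosome 2) was low but present in every library, with 98 reads in all. It measured 3.44, 3.68 and 1.56 normalized counts in mock shoot replicates 1, 2 and 3, and 3.68, 3.46 and 2.91 in PA shoot. In mock root it measured 10.5, 9.30 and 20.0, and in PA root 9.39, 6.45 and 12.9. All 6 root libraries were above all 6 shoot libraries, while mock and PA overlapped within each tissue. The ratio of root to shoot was 4.30 in mock plants (95% interval 2.01 to 10.6, from 46 and 8 reads) and 2.96 in PA plants (1.39 to 6.99, from 35 and 9 reads). These exact binomial intervals cover counting error only. With no filter on low values, the log2 difference of root minus shoot was 1.85 in mock plants (95% interval 0.86 to 2.85, limma adjusted p = 0.00604) and 1.24 in PA plants (95% interval 0.40 to 2.08, limma adjusted p = 0.0169), where 51.9 and 53.8% of loci passed. FLS2 was below the mean of 10 normalized counts that the shoot, tissue and interaction tests otherwise required. In root its PA difference was -0.40 on the log2 scale (95% interval -1.23 to 0.43, limma adjusted p = 0.741). It met the filter there through mock root, with a mean of 13.3 against 9.60 in PA root. Without mock root replicate 3, at 20.0, FLS2 fell below the filter and its PA difference was not tested.

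**Figure D1:**
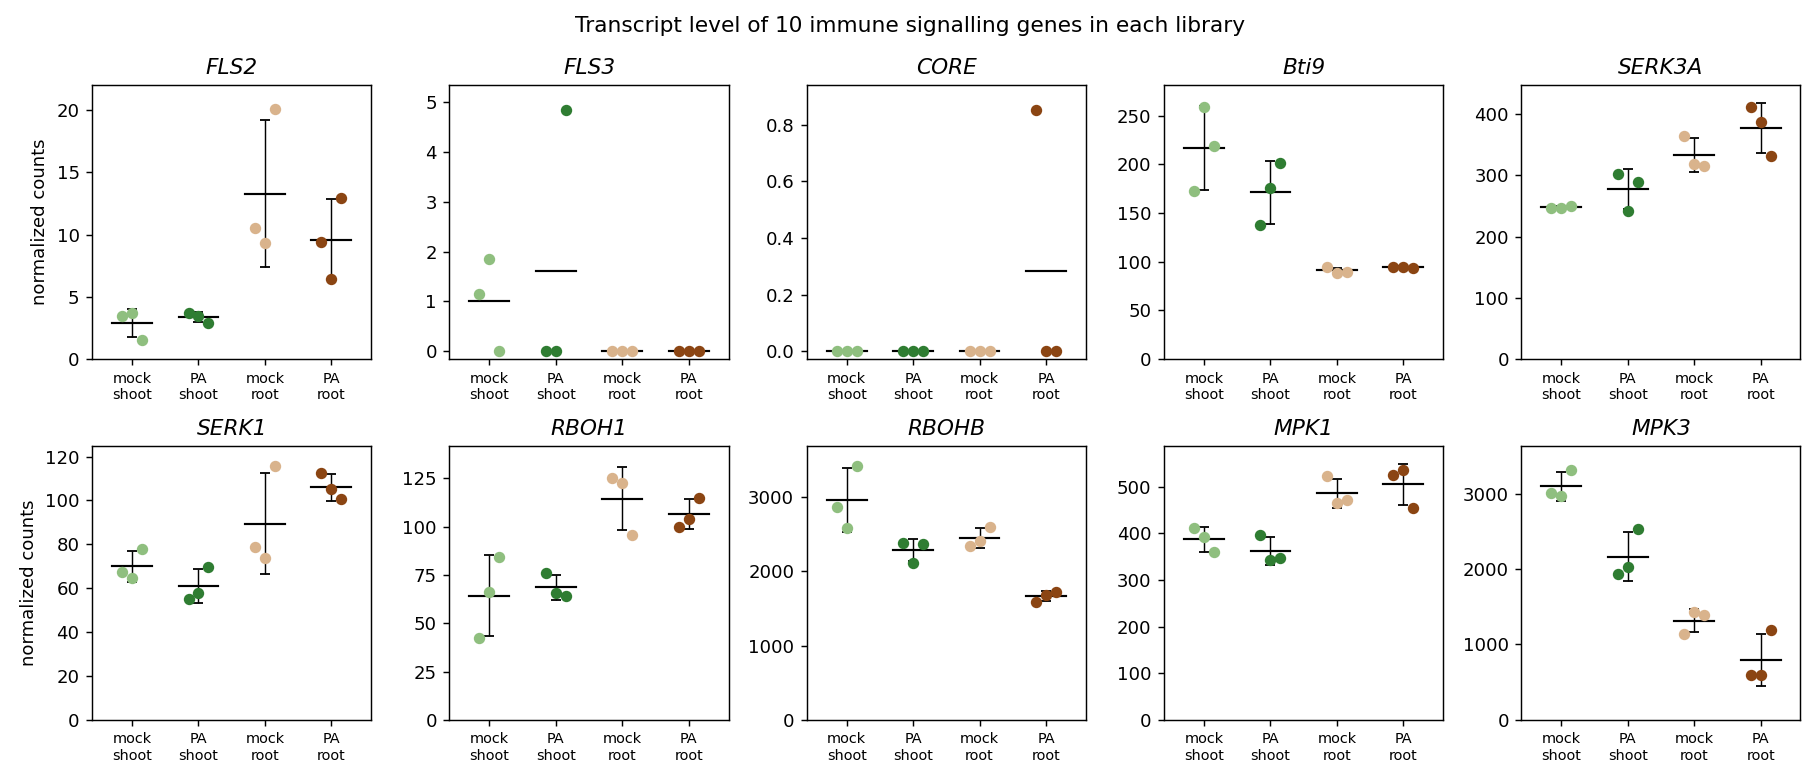
Normalized counts (vertical axes, linear, a separate scale for each gene) of the 10 genes in shoots and roots of mock and PA plants. Points are the 3 libraries of a group, horizontal lines are means and bars are the SD, which is left out for FLS3 and CORE, where most libraries were at 0. MPK3 and RBOHB lie lower in PA than in mock in both tissues, with 1 PA root library of MPK3 inside the mock range.

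Bti9 (Solyc07g049180.3, chromosome 7), the LysM receptor, was the only receptor of the 4 with levels well above the filter in all groups. Its shoot mean was 217 ± 43.0 normalized counts in mock and 171 ± 32.4 with PA, and its root mean was 91.0 ± 3.04 in mock and 94.5 ± 0.69 with PA (SD, n = 3 each). The shoot libraries ran from 137 to 259 and the root libraries from 88.8 to 94.9. Every shoot library was thus above every root library. Mock and PA overlapped in both tissues, with the shoot values more spread than the root values.

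The co-receptors were measured in all libraries. SERK3A (Solyc10g047140.2, chromosome 10) is a tomato counterpart of Arabidopsis BAK1. Its shoot means were 248 ± 1.67 normalized counts in mock and 278 ± 32.6 with PA (SD, n = 3 each). Its root means were 333 ± 27.8 in mock and 377 ± 40.8 with PA (SD, n = 3 each). Mock and PA overlapped in each tissue. Its lowest root library, 315, was above its highest shoot library, 303. SERK1 (Solyc04g072570.3, chromosome 4), known in tomato for a part in Ve1 and Mi-1 resistance, had shoot means of 70.0 ± 7.15 in mock and 60.9 ± 7.84 with PA, and root means of 89.4 ± 23.1 and 106 ± 6.18. Mock shoot and mock root overlapped for SERK1, since mock root ran from 73.6 to 116 and mock shoot reached 78.1. The coefficient of variation of SERK1 was 10.2% in mock shoot, 12.9% in PA shoot and 5.82% in PA root, at or below the 12.9, 13.4 and 8.91% that counting error alone gives there. In mock root it was 25.8%, above the 9.84% of counting error.

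Both oxidases were measured in every library. RBOHB (Solyc03g117980.3, chromosome 3) is the oxidase whose counterpart in Nicotiana benthamiana makes most of the oxidative burst that microbial patterns set off. It measured 2867, 2576 and 3424 normalized counts in mock shoot replicates 1, 2 and 3, and 2384, 2110 and 2367 in PA shoot. In mock root it measured 2337, 2401 and 2596, and in PA root 1588, 1679 and 1720. PA was below mock without overlap in both tissues. The nearest libraries were 193 normalized counts apart in shoot and 616.8 apart in root.

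RBOH1 (Solyc08g081690.3, chromosome 8), an oxidase known in tomato for hydrogen peroxide signalling in stress tolerance, had shoot means of 64.3 ± 21.1 normalized counts in mock and 68.6 ± 6.48 with PA, and root means of 115 ± 16.2 and 106 ± 7.77 (SD, n = 3 each). Shoot libraries ran from 42.4 to 84.3 and root libraries from 95.9 to 125. Mock and PA overlapped in each tissue.

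Among the MAP kinases, MPK3 (Solyc06g005170.3, chromosome 6), the counterpart of a wound- and pathogen-responsive Arabidopsis kinase of the same name, measured 3006, 2969 and 3321 normalized counts in mock shoot replicates 1, 2 and 3. In PA shoot it measured 1930, 2031 and 2536, all below mock shoot. In mock root it measured 1136, 1424 and 1388, and in PA root 590.1, 589.7 and 1187. PA root replicates 1 and 2 were below every mock root library, and replicate 3 was inside the mock root range. By group mean, mock shoot was highest, then PA shoot, then mock root, with PA root lowest, and among neighbours in that order the ranges overlapped for the last pair.

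MPK1 (Solyc12g019460.2, chromosome 12), a kinase known in tomato for systemin and wound signalling, had shoot means of 388 ± 26.8 normalized counts in mock and 362 ± 29.5 with PA, and root means of 486 ± 31.6 and 505 ± 44.2 (SD, n = 3 each). Mock and PA overlapped in both tissues, and every root library, at 455 to 535, was above every shoot library, at 344 to 412. Tomato also has close relatives of MPK1, SERK3A and the oxidases. The sources used here do not say how reads that match several loci were counted, so the levels of these genes are uncertain to that extent.

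The first comparison asked whether the genes differed in shoots after the PA spray. MPK3 fell, and it was the 1 gene that passed of the 7 tested. The log2 difference was -0.53 with a standard error of 0.12, or 1.44-fold lower (95% interval -0.78 to -0.27, limma adjusted p = 0.0427). Of all 14505 loci tested, 1.58% passed, and 0.655% passed in the lower direction. RBOHB was lower in PA in all 3 libraries, with a log2 difference of -0.36 and a standard error of 0.12, but did not pass (95% interval -0.62 to -0.11, limma adjusted p = 0.171). Groups that did not overlap, with PA lower, occurred at 11.6% of tested loci. The other 5 genes overlapped between PA and mock, with log2 differences from -0.33 for Bti9 to 0.16 for SERK3A. The median over the 7 was -0.20, against -0.02 for all tested loci. The shoot markers took 18.8 to 19.0% in these PA libraries against 20.2 to 21.5% in mock. Their choice from mock values favours this order, by an amount that was not tested. The part of these markers in the MPK3 and RBOHB values was not tested either.

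The MPK3 call in shoot stood near the threshold. The limma adjusted p was 0.102 and 0.0877 without mock shoot replicates 2 and 3, and 0.207 and 0.242 without PA shoot replicates 1 and 2, with log2 differences of -0.64 to -0.45 when any library was left out. Without mock shoot replicate 1, the library that stood apart, the difference was -0.55 (limma adjusted p = 0.0123). With whole reads, edgeR gave an adjusted p of 0.0559 and DESeq2 gave 0.00556. Quantile scaling gave a limma adjusted p of 0.0626 and one fit of all 12 libraries gave 0.25.

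In roots the question was whether the same leaf spray changed these genes away from the sprayed tissue. RBOHB fell, and it was the 1 gene that passed of the 8 tested. The log2 difference was -0.56 with a standard error of 0.08, or 1.47-fold lower (95% interval -0.73 to -0.38, limma adjusted p = 0.0151). Of all 14645 loci tested, 1.58% passed, and 1.11% passed in the lower direction. PA was below mock without overlap at 7.26% of these loci. MPK3 had a log2 difference of -0.81 with a standard error of 0.22 and did not pass (95% interval -1.30 to -0.33, limma adjusted p = 0.104). The other 6 genes overlapped between PA and mock, with log2 differences from -0.40 for FLS2 to 0.27 for SERK1. FLS2 met the filter only with mock root replicate 3 included. The median over the 8 was -0.02, against 0.03 for all tested loci.

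Single libraries moved both root values across the threshold. Without PA root replicate 3, which also lay nearest to mock on the first principal component, the MPK3 difference was -1.15 (limma adjusted p = 0.000283). Calls over all loci rose from 232 to 517 in that fit. With whole reads of all 6 libraries, MPK3 had an adjusted p of 0.143 in edgeR and 0.458 in DESeq2. RBOHB had 0.0123 in edgeR and 7.76e-06 in DESeq2. Leaving out any other root library gave MPK3 differences of -0.92 to -0.65, none of which passed. The limma adjusted p of RBOHB was 0.0734 and 0.0589 without mock root replicates 2 and 3, and 0.0654 without PA root replicate 2. Its difference stayed between -0.59 and -0.51 when any root library was left out.

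**Figure D2:**
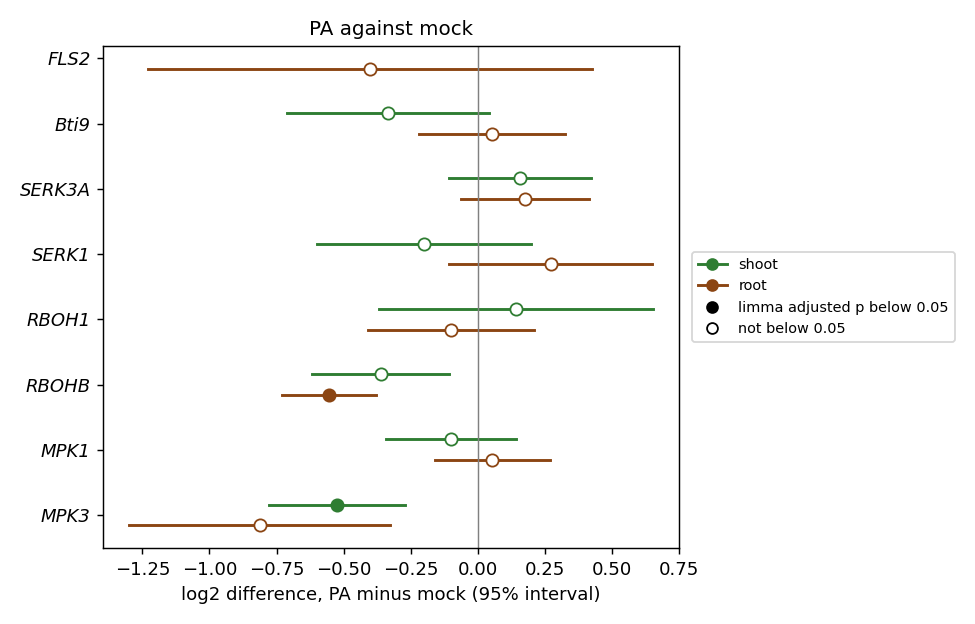
Log2 difference of PA minus mock (horizontal axis) for the 8 genes tested in at least 1 tissue, in shoot (green) and root (brown), with 95% intervals from limma. Filled points passed an adjusted p of 0.05, which are MPK3 in shoot (-0.53) and RBOHB in root (-0.56). FLS2 was tested in root only.

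**Figure D3:**
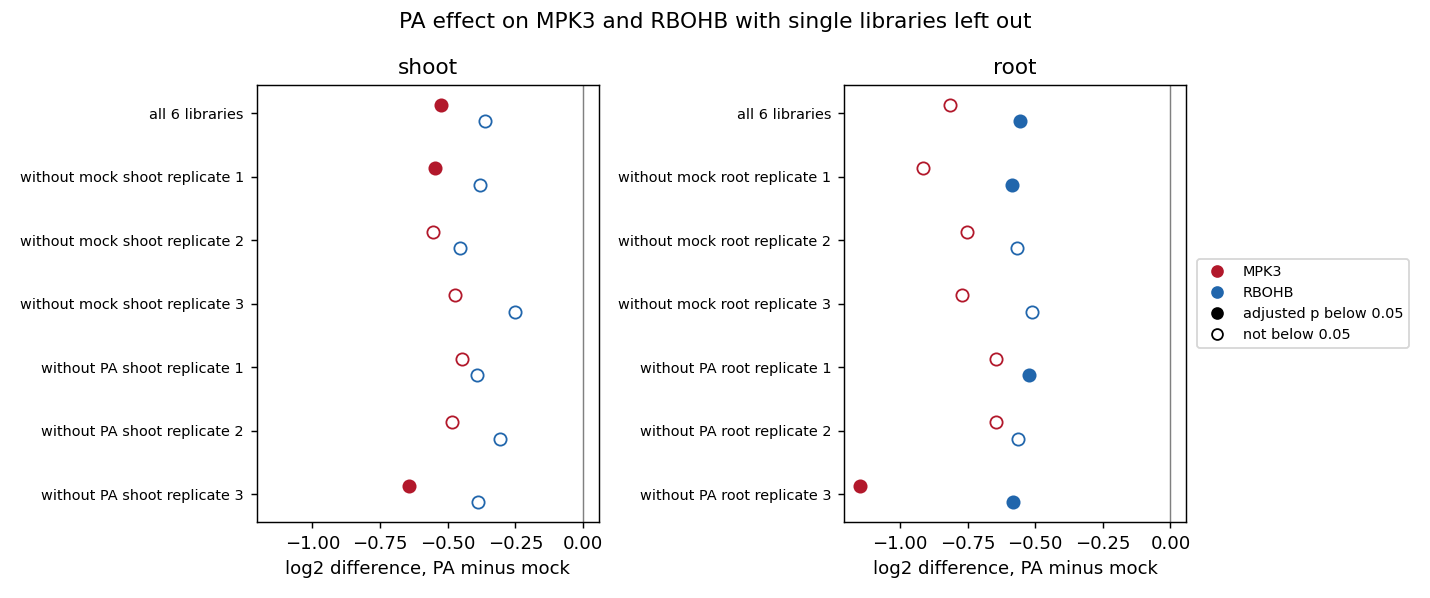
Log2 difference of PA minus mock (horizontal axis) of MPK3 (red) and RBOHB (blue) in shoot and root, with all 6 libraries of the tissue and with each library left out in turn. Filled points passed a limma adjusted p of 0.05. Every value lies below 0, from -1.15 for MPK3 without PA root replicate 3 to -0.25 for RBOHB without mock shoot replicate 3.

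Whether PA acted differently in the tissues was tested over all 12 libraries, and none of the 7 genes tested passed limma, edgeR or DESeq2. None had an unadjusted limma p below 0.05 either. Over all 13010 loci, 0.377% passed limma. For MPK3 the root effect minus the shoot effect was -0.29 on the log2 scale (95% interval -0.91 to 0.33, limma adjusted p = 0.748), and for RBOHB it was -0.19 (95% interval -0.50 to 0.11, limma adjusted p = 0.64). The passing of MPK3 in shoot and of RBOHB in root is therefore not shown to be a difference between tissues. SERK1 had log2 differences of opposite sign, -0.20 in shoot and 0.27 in root, and the difference between them was 0.47 (95% interval -0.06 to 1.00, limma adjusted p = 0.472).

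A comparison added after the values had been seen took the mean of the PA effects in shoot and root over all 12 libraries. It draws on the same libraries as the comparisons within tissues and is not independent of them. RBOHB and MPK3 were the 2 of 7 genes that passed, both lower with PA, where 1.71% of 13010 loci passed in that direction. The mean log2 difference was -0.46 with a standard error of 0.07 for RBOHB (limma adjusted p = 0.00416) and -0.67 with a standard error of 0.15 for MPK3 (limma adjusted p = 0.023). RBOHB passed when any of the 12 libraries was left out, with a limma adjusted p of at most 0.0195. MPK3 did not pass without PA shoot replicates 1 and 2, mock root replicates 2 and 3, or PA root replicates 1 and 2, with limma adjusted p of 0.0546 to 0.071. For the other oxidase and MAP kinase the mean difference was 0.02 for RBOH1 (95% interval -0.29 to 0.33) and -0.02 for MPK1 (95% interval -0.18 to 0.13).

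The remaining comparisons asked how far the genes differed between root and shoot. In mock plants 5 of the 7 genes tested passed, where 66.1% of 15317 loci did. Root and shoot did not overlap for the same 5, where 71.9% of loci did not overlap. Bti9 and MPK3 were lower in root, with log2 differences of -1.22 and -1.24. SERK3A, RBOH1 and MPK1 were higher in root, with log2 differences of 0.42, 0.87 and 0.32. The standard errors of these 5 were 0.16, 0.11, 0.10, 0.25 and 0.10 in the order given, and the limma adjusted p-values were 9.09e-05, 5.99e-06, 0.00436, 0.0118 and 0.0144. RBOHB, at -0.27 (95% interval -0.53 to -0.001), and SERK1, at 0.32 (95% interval -0.13 to 0.78), did not pass (limma adjusted p = 0.0715 and 0.186). Without mock root replicate 1 the adjusted p was 0.0515 for RBOH1 and 0.0583 for MPK1.

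The PA libraries gave the same comparison in samples that the mock comparison did not use. All 7 genes passed there, where 68.9% of 15352 loci did, so a call by itself says little about these genes. The signs were those found in mock plants for all 7. The log2 differences of root minus shoot were -0.84 for Bti9, -0.46 for RBOHB and -1.53 for MPK3, and 0.44 for SERK3A, 0.80 for SERK1, 0.63 for RBOH1 and 0.48 for MPK1, with limma adjusted p-values from 0.000233 for MPK3 to 0.0086 for SERK3A. In the PA libraries, root and shoot did not overlap for any of the 7, against 73.4% of loci. Quantile scaling moved the median difference of all loci from 0.02 to 0.15 in mock plants and from 0.04 to 0.16 in PA plants, and RBOHB in mock plants was then at -0.04 (limma adjusted p = 0.793).

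**Figure D4:**
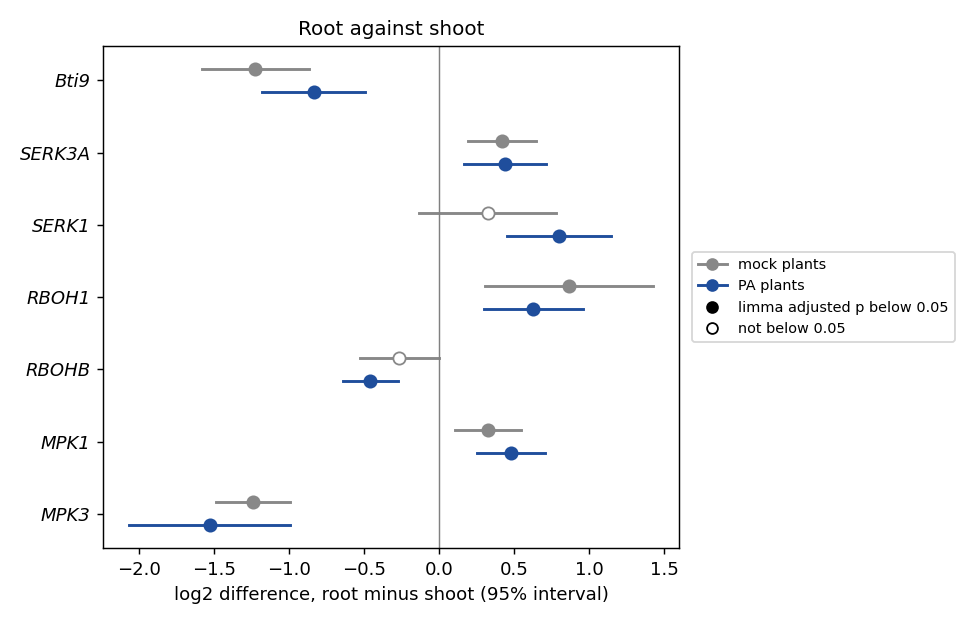
Log2 difference of root minus shoot (horizontal axis) for the 7 genes tested, in mock plants (grey) and PA plants (blue), with 95% intervals from limma. Filled points passed an adjusted p of 0.05. Bti9, RBOHB and MPK3 lie on the shoot side and SERK3A, SERK1, RBOH1 and MPK1 on the root side in both sets of plants.

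Of 21 pairs of genes compared over the 12 libraries, MPK3 and RBOHB had the highest correlation after each tissue's mean was subtracted. Their log2 levels then had a Pearson r of 0.81 over the 12 libraries, 0.84 over the 6 shoot and 0.82 over the 6 root libraries. RBOHB ranked 203rd among 8504 loci by likeness to MPK3. These points share the difference between PA and mock, and with each group's mean subtracted instead, r was 0.36. Other pairs were closer on part of these measures. SERK1 and MPK3 had r of 0.885 in shoot, and SERK3A and MPK1 had 0.893 in root and 0.733 with group means subtracted. SERK3A ran against MPK3, with r of -0.77 over the 12 libraries, -0.49 over the 6 shoot and -0.93 over the 6 root libraries, and -0.60 with group means subtracted. MPK1 and MPK3 had r of -0.42 over the 12 libraries, with opposite signs in shoot (0.19) and root (-0.81), and -0.80 with group means subtracted. By likeness to MPK3, SERK3A ranked 8413th and MPK1 7106th among the 8504 loci. PA root replicate 3 was the highest of its group for MPK3 (1187 against 590.1 and 589.7). The same library was the lowest for MPK1 (455 against 526 and 535) and SERK3A (332 against 412 and 387). How far the root and group-centred r rest on this library was not tested.

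**Figure D5:**
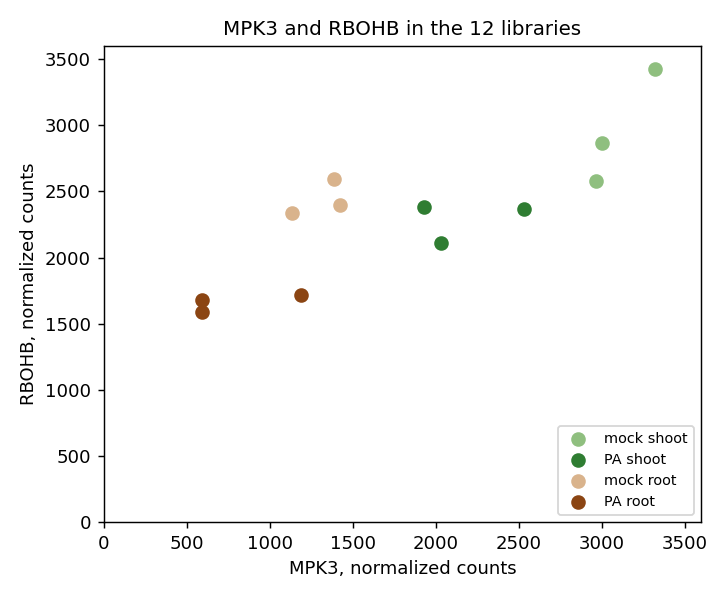
Normalized counts of MPK3 (horizontal axis) and RBOHB (vertical axis) in the 12 libraries, coloured by group. PA libraries lie below and to the left of the mock libraries of their tissue, except that PA root replicate 3 reached 1187 for MPK3, inside the mock root range.

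The loci most like MPK3 over the 12 libraries, after each tissue's mean was subtracted, were Solyc06g076050.5 (Pearson r of 0.995) and Solyc06g073050.2 (0.988). Solyc06g076050.5 had means of 441 and 275 normalized counts in mock and PA shoot and 490 and 256 in mock and PA root. Those most like RBOHB were Solyc01g105560.3 (0.983) and Solyc02g084550.3 (0.967). Solyc01g105560.3 had means of 655 and 515 in mock and PA shoot and 279 and 194 in mock and PA root. These were the closest of 8504 loci and are given as a description, and the files do not pair them with gene names.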

How the data were processed

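Messenger RNA was measured with a Lexogen QuantSeq 3′ kit from 2 µg of RNA, per the labels' protocols. Tools listed in the submitters' processing notes are DESeq2, given without a version, STAR 2.6.1d, Trimmomatic 0.38 and FastQC 0.11.8. The sources used here name no read counter, genome build or annotation. The table deposited by the authors holds a normalized signal, called normalized counts in its title, in 12 columns, all used. Dividing each column by its smallest value above 0 gave whole numbers, within 0.01, for 100% of values, so whole reads were recovered, with size factors of 0.6402 to 1.313.

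Groups came from the sample titles. The labels call each sample a pool and say nothing of separate cultures, so a p-value reflects only how these samples vary. Replicates differed by more than sampling noise (chi-square per degree of freedom 3.84 to 9.92). Deviations of same-numbered samples from their group means correlated at -0.053 to 0.102, below or near the 0.1 asked of each pair. Samples were therefore not paired by number, and the tests between tissues treat root and shoot samples as independent.

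The trend version of limma 3.58.1 (R 4.3.3) was fitted to log2(value + 1), a scale that understates the change of low loci. Loci needed a mean of 10 normalized counts in the fit, or in each tissue where all 12 libraries entered. Tests were two-sided, with Benjamini-Hochberg adjustment over all loci tested and a threshold of 0.05. Whole reads were also tested with edgeR 4.0.16 (quasi-likelihood) and DESeq2 1.42.0, and fits were tested on simulated data. Other alternatives were pseudocounts, filters, quantile scaling, a replicate block, one fit of all libraries and leaving out each library. All 10 members are named, with the 2 loci most like the member of lowest p in each tissue among loci with a mean of at least 50 in both. A list of other immunity genes was not tested, since no table used here pairs their names with these identifiers. The members, lists and tests were chosen with earlier results of these data known. Figures were drawn with matplotlib 3.10.9.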

Additional observations from a re-analysis of the deposited data

How the results depend on the processing

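In the 2 comparisons of PA with mock within a tissue, every gene kept its direction in all alternatives that tested it, except RBOH1. RBOH1 in shoot ranged from -0.13 to 0.36 with single libraries left out. FLS2 in root had 13 alternatives against 15 for each other gene. It was not tested with the filter of 50 or without mock root replicate 3. In shoot the number of genes called went from 1 to 0 with quantile scaling, edgeR and one fit of all 12 libraries, and was 0 to 1 with single libraries left out. In root it was 0 to 2 with single libraries left out. Same-numbered samples share only a number, and the replicate block gave 2 genes in root, where MPK3 then passed (limma adjusted p = 0.0212). RBOHB passed between mock tissues with the block (0.0434), with one fit of all libraries (0.031) and without mock shoot replicate 2 (0.0288), and the block changed no other call on a single gene. Over all loci, calls in shoot were 229, and 357 with DESeq2, 376 with the block and 62 to 383 with single libraries left out. Calls in root were 232, and 386, 441 and 14 to 517 on the same terms. The difference between tissues was called at 49 loci, and at 75 with edgeR, 169 with DESeq2, 110 with the block and 15 to 160 with single libraries left out. For that difference SERK3A, at 0.02, was at -0.0297 with quantile scaling, -0.0212 with edgeR and -0.0795 to 0.11 with single libraries left out, and RBOH1 was at -0.46 to 0.0284. The mean of both tissues was called at 351 loci, 225 with no filter and 154 to 451 with single libraries left out, and at 1 to 2 of the genes. There SERK1 ran from -0.0267 to 0.14, RBOH1 from -0.11 to 0.13 and MPK1 from -0.0559 to 0.0143 with single libraries left out. Between mock tissues 5 genes were called, or 3 to 6 with single libraries left out, and 6 with no filter, where FLS2 also passed. Between PA tissues 7 were called, and 8 with no filter, again with FLS2. The cause of these shifts was not tested. Depth limits FLS2, FLS3 and CORE.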
